A study of Saccharomyces cerevisiae with 16 samples.

Results

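The genes described here are 35 genes of Saccharomyces cerevisiae that encode enzymes of glycolysis, fermentation, acetate use, gluconeogenesis and the branch to glycerol. They were taken from a list of systematic names (the HXK, GLK, PGI, PFK, FBA, TPI, TDH, PGK, GPM, ENO, PDC, ADH, ALD and GPD genes with PYK2, ACS1, FBP1 and PCK1), not from their measured values, and all 35 are among the 7125 genes of the deposited table. Total RNA of yeast grown in YPD, a rich medium with glucose, to an OD600 of 0.7 to 1.0 was sequenced. The values are RPKM, the number of reads divided by gene length and by sequencing depth. The 6 groups had 2 biological replicates each. Control and serine were labelled wild type, and the latter was treated with serine at a dose that the sources used here do not give. WT was also labelled wild type. CK2 was labelled ck2, and the labels do not say what this denotes. YBL574 was labelled by that strain name alone. H3T11A carries a histone H3 whose threonine 11 is replaced by alanine, and its other differences from YBL574 are not given in the sources used here. Nothing says that each strain was more than 1 clone, or that the replicates came from separate cultures, so p-values measure only the spread between these samples.

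Glycolysis converts glucose to pyruvate. In yeast on glucose most pyruvate is decarboxylated to acetaldehyde and reduced to ethanol, which restores the NAD+ that glyceraldehyde-3-phosphate dehydrogenase consumes. Acetaldehyde can instead be oxidised to acetate and activated to acetyl-CoA, and dihydroxyacetone phosphate can be drained to glycerol. Gluconeogenesis runs the pathway backward from non-fermentable carbon, and its dedicated enzymes FBP1 and PCK1 are known to be repressed by glucose. Many steps have several isozymes with different regulation. In bulk cultures, a different share of cells and a different amount of RNA per cell cannot be told apart.

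Fitted read totals lay between 8774540 and 18078518 per library, so the abundant members rest on many reads and the rarest on few. TDH3 had at least 81174 recovered reads in a library, against 17 to 64 for FBP1. The libraries labelled control and serine expressed alpha mating-type genes, as did CK2, whereas WT, YBL574 and H3T11A expressed a-type genes. The summed RPKM of the 4 alpha genes was 1282 to 1557 in control and serine, 460 and 442 in CK2 and at most 29.1 elsewhere. Mating type, and any other strain difference that goes with it, therefore cannot be told apart from the label in CK2 against WT and in WT against control. Genes checked against the labels were chosen after their values were seen. CKA1, whose product is a catalytic part of casein kinase 2, was at 0.064 and 0.068 RPKM in CK2 and at 66.9 and 57.5 RPKM in WT. HHT1, an H3 gene, was at 1087 and 1200 RPKM in YBL574 and at 6.78 and 9.78 RPKM in H3T11A. HHT2, the other H3 gene, was at 224 and 261 RPKM in YBL574 and at 918 and 1159 RPKM in H3T11A. TRP1 was at 0.96 and 0.39 RPKM in YBL574 and at 97.1 and 99.2 RPKM in H3T11A. URA3 was at 278 and 379 RPKM against 85.4 and 99.6 RPKM, and HIS3 at 213 and 189 RPKM against 82.5 and 58.8 RPKM. Such strain differences cannot be told apart from the substitution in H3T11A against YBL574. RPKM values do not show the mutated codon itself.

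The 35 genes spanned nearly the whole range of expression. FBA1 (YKL060C, aldolase) and TDH3 (YGR192C, the main glyceraldehyde-3-phosphate dehydrogenase) were among the 5 protein-coding genes with the highest mean RPKM in every group, and FBP1 (YLR377C) was the lowest of the 35 in every group, at 1.38 to 4.66 RPKM. RPKM is a level per length, so genes can be set side by side within a library. The leading gene changed with the group. TDH1 led the members in control, serine and CK2, FBA1 in WT, and TDH3 in YBL574 and H3T11A. In control, TDH1 was at 9671 and 8984 RPKM and TDH3 at 8812 and 8021 RPKM, so the lower TDH1 value lay just above the higher TDH3 value. In YBL574, TDH3 at 8771 and 8149 RPKM and FBA1 at 8362 and 7615 RPKM overlapped. In H3T11A the replicates of TDH3 at 12086 and 17635 RPKM overlapped those of FBA1 at 8689 and 13589 RPKM.

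**Figure D1:**
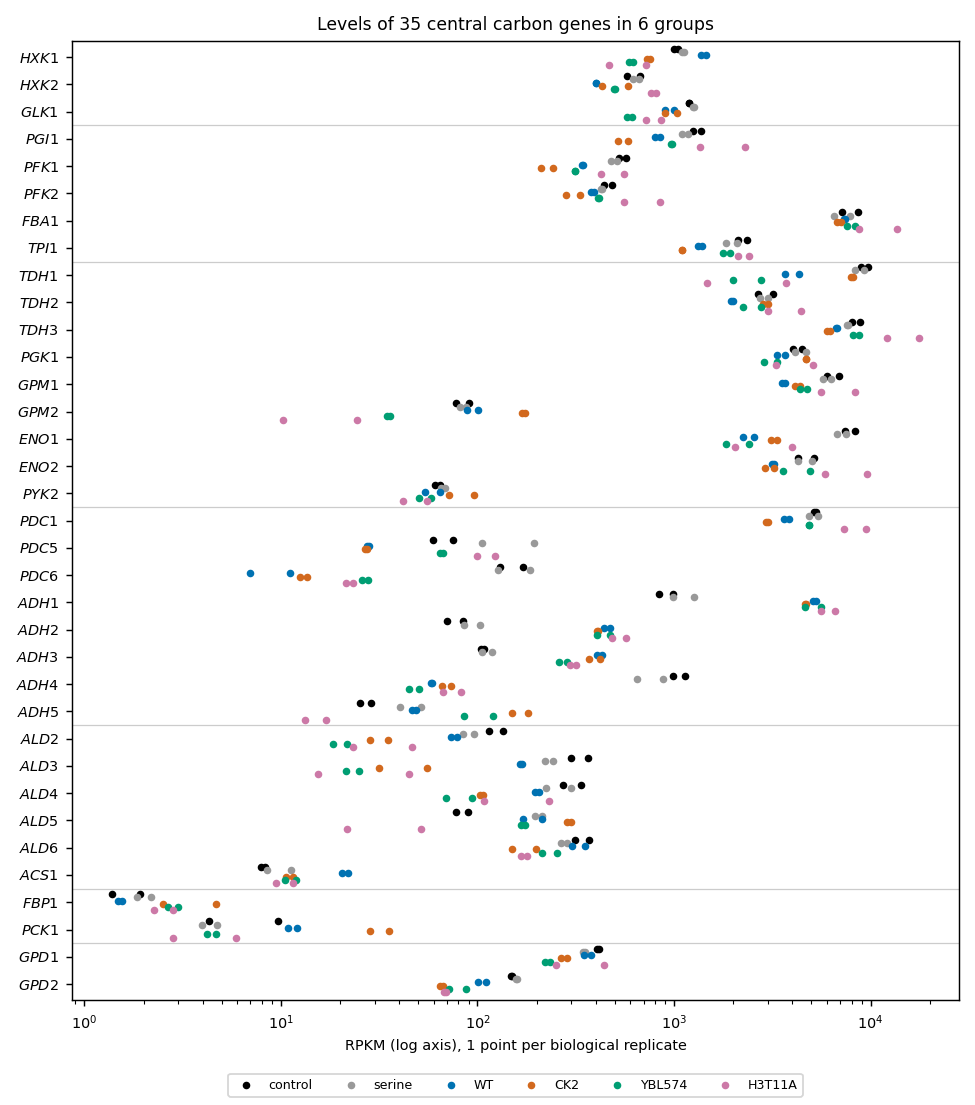
RPKM (log axis) of the 35 genes, from the hexokinases at the top to the glycerol branch at the bottom, with 1 point per biological replicate, a colour per group and grey lines between roles. FBP1 stayed between 1.38 and 4.66 RPKM in every group, while ADH1, ADH2 and ADH3 were lower and ADH4 and PDC6 higher in control and serine than in the other groups.

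Members differed in how much they varied across the 12 replicates. The highest value of PGK1 (phosphoglycerate kinase) was 1.78 times its lowest, the smallest such ratio among the 35, and that of GPD1 was 1.98 times. The ratio was 26.7 for PDC6, 25.3 for ADH4, 23.7 for ALD3 and 17.1 for GPM2. Of these most variable members, PDC6, ADH4 and ALD3 are isozymes of a step that another gene also serves, and GPM2 is a homologue of phosphoglycerate mutase.

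The members together made up a share of the signal that also differed by group. Of the summed RPKM times length over 5988 nuclear protein-coding genes, the 35 took 9.55% and 8.83% in control, 9.03% and 9.49% in serine, 6.79% and 7.06% in WT and 6.60% and 6.42% in CK2. The share was 8.33% and 7.87% in YBL574 and 8.66% and 11.2% in H3T11A. Control and serine overlapped, CK2 lay below WT, and H3T11A lay above YBL574, with replicate 3 well above replicate 1.

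YBL574 and H3T11A differ from the other groups in having 2 libraries from each RNA extraction, and the members did not read alike in the pair. In the second library, 31 to 33 of the 35 members were higher than in the first, with a median log2 difference of 0.34 to 0.42. The median over 6727 genes was between -0.01 and 0.02. TDH3 of YBL574 replicate 2 was at 5823 RPKM in the first library and 11719 RPKM in the second, and TPI1 differed by 1.75 to 1.99 times in the 4 extractions. GPM2 went the other way in all 4, at 0.782 to 0.833 times. The pair was averaged, and both strains carry both library series, so the strain comparison is balanced for it. Levels of YBL574 and H3T11A set beside the other 4 groups are not, since those have 1 library a replicate.

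**Figure D2:**
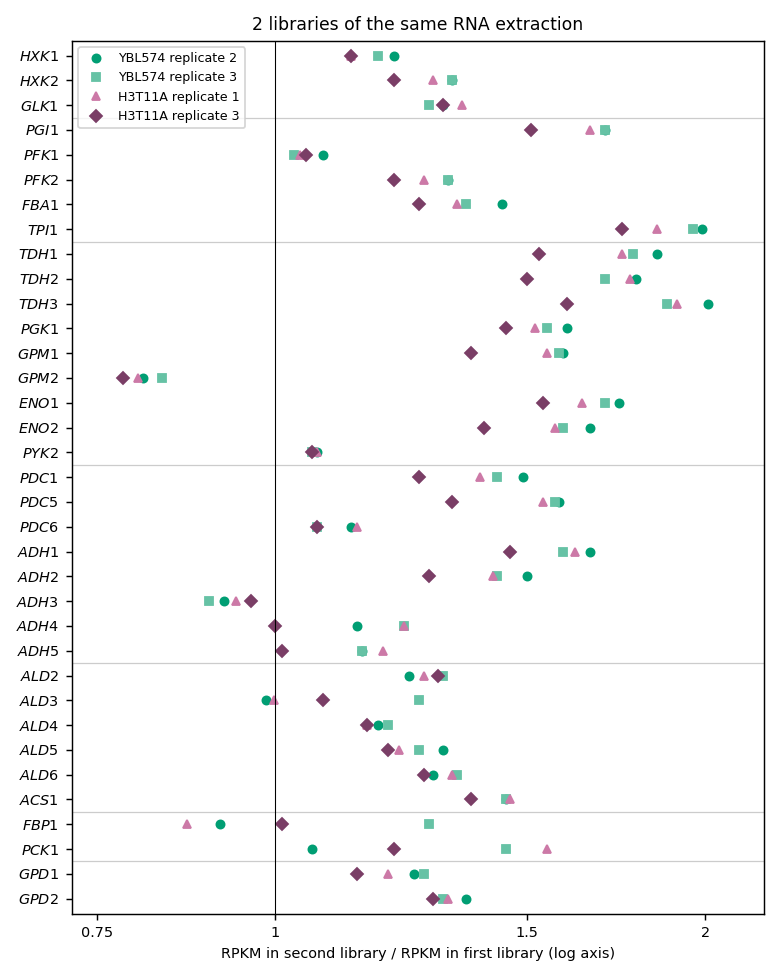
RPKM in the second library divided by RPKM in the first library of the same RNA (log axis) for the 35 genes, with 1 symbol for each of the 4 extractions of YBL574 and H3T11A. Most points lie right of 1, up to 2.01 for TDH3, while GPM2 and ADH3 lie left of 1 in all 4 extractions.

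Differences between groups were tested with limma on log2(RPKM + 1) over 6727 genes, all 35 members among them, and every log2 difference below is on this scale with its standard error (SE). A gene was called at a Benjamini-Hochberg adjusted p below 0.05. The share of members called was close to the share of all genes called in each comparison, so the counts set nothing apart about the members. The results lie in which isozymes moved and in which direction.

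Serine treatment was compared with control, since serine metabolism branches from glycolysis at 3-phosphoglycerate. None of the 35 members was called, while 90 of the 6727 genes were (1.34%). Over all genes 0.714% were called higher and 0.624% lower. The replicates of the groups did not overlap for 20 members, beside 55.0% of all genes. At an unadjusted p below 0.05 there were 4 members, beside 934 of the 6727 genes, so this count does not set the members apart either. The 17 glycolytic members had log2 differences between -0.20 and 0.12, with a median of -0.08 beside 0.00 over all genes. These 17 do not include CDC19, the main pyruvate kinase gene. The SE of a single gene was 0.13 to 0.37, as large as most of these differences.

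The 4 members with an unadjusted p below 0.05 were isozymes of the reactions after pyruvate. ALD5 (YER073W), a mitochondrial aldehyde dehydrogenase, was at 212 and 196 RPKM in serine and at 77.8 and 89.5 RPKM in control (log2 difference 1.28 ± 0.31, adjusted p = 0.098). PDC5 (YLR134W), a minor pyruvate decarboxylase, was at 195 and 106 RPKM in serine and at 59.7 and 74.7 RPKM in control (1.09 ± 0.24, adjusted p = 0.0781). Both serine replicates lay above both control replicates for each gene, but those of PDC5 were far apart. ADH5 (YBR145W), a minor alcohol dehydrogenase, was at 40.4 and 51.7 RPKM against 28.8 and 25.3 RPKM (0.74 ± 0.19, adjusted p = 0.117). ADH4 was at 646 and 881 RPKM against 1139 and 986 RPKM (-0.49 ± 0.16, adjusted p = 0.202). The calls on these genes depended on the fit. ALD5 passed when the 2 groups were fitted alone (adjusted p = 0.044), and PDC5 passed without serine replicate 3. ADH5, ALD5 and PDC5 all passed in the fit of all groups with a replicate block, and none did in that of the 2 groups with it.

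**Figure D3:**
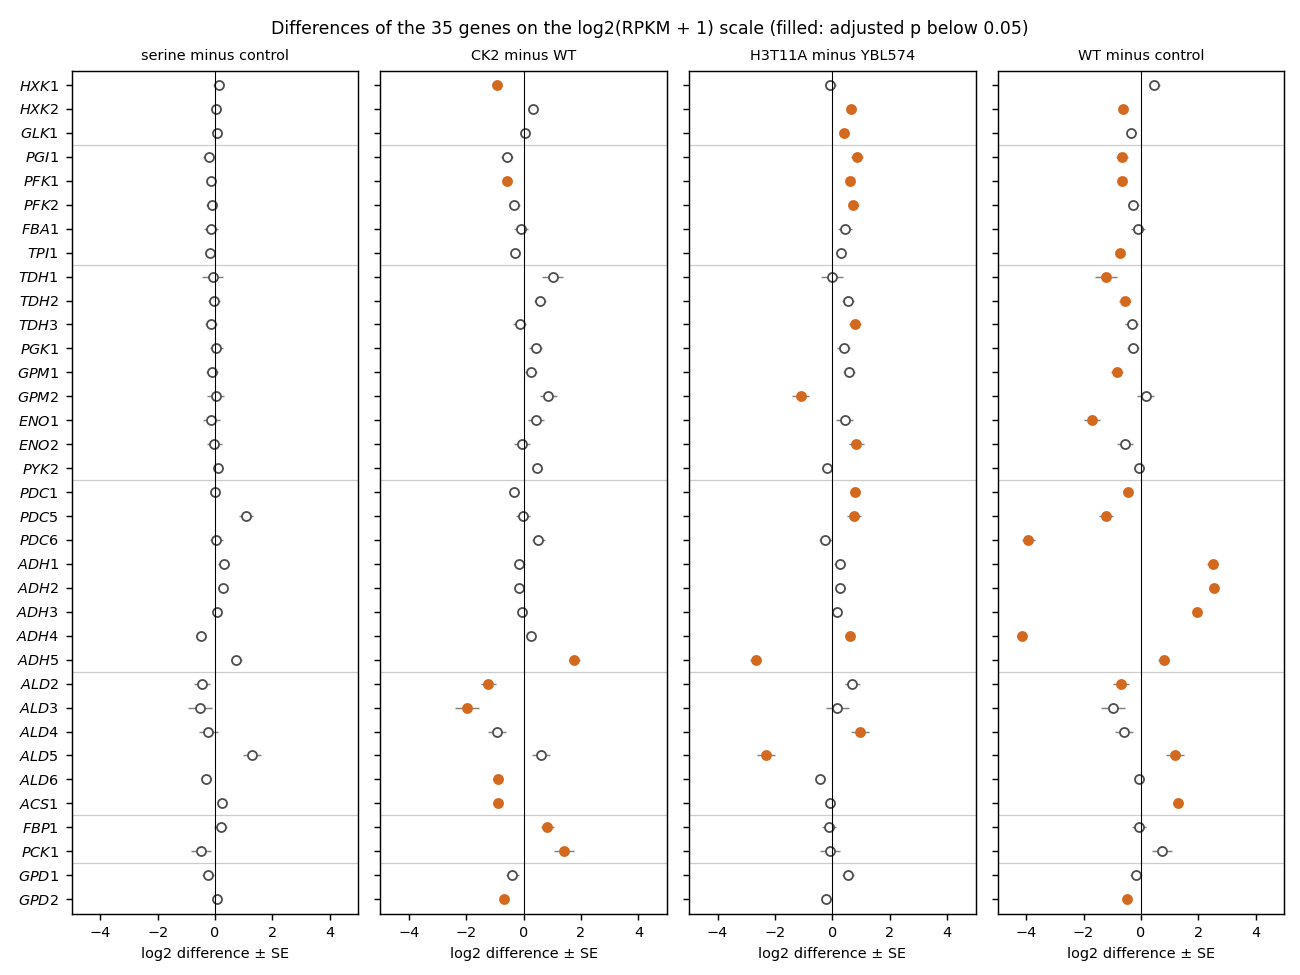
Log2 difference with its SE for each of the 35 genes in the 4 comparisons, on the log2(RPKM + 1) scale, with filled points at an adjusted p below 0.05. No point is filled for serine, 10 are for CK2, 14 for H3T11A and 20 for WT minus control, where ADH4 and PDC6 lie near -4 and ADH1 and ADH2 near 2.5.

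CK2 was compared with WT. Of the 35 members, 3 rose and 7 fell, which is 28.6% called beside 31.0% of all genes. By direction, 8.57% of members rose beside 16.4% of all genes, and 20.0% fell beside 14.6%. Upper-quartile scaling gave 1337 genes higher and 729 lower, beside 1100 and 983 as deposited, with the same 3 and 7 members. The 2 gluconeogenic genes were both among those that rose, and 4 of the 6 genes of acetaldehyde and acetate use fell. Of the 9 genes of lower glycolysis none was called, with log2 differences between -0.14 and 1.01. Groups did not overlap for 32 of the 35 members, beside 76.1% of all genes.

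PCK1 (YKR097W), phosphoenolpyruvate carboxykinase, catalyses the first committed step of gluconeogenesis. It lies on chromosome XI at 631152 to 632801, plus strand. It was at 35.4 and 28.4 RPKM in CK2 and at 10.8 and 12.1 RPKM in WT, a log2 difference of 1.40 ± 0.34 (limma, adjusted p = 0.0143). Both CK2 replicates lay above both WT replicates, and above every replicate of the other groups. FBP1, fructose-1,6-bisphosphatase, opposes phosphofructokinase. It was at 2.52 and 4.66 RPKM in CK2 and at 1.49 and 1.55 RPKM in WT (0.83 ± 0.23, adjusted p = 0.0265). The CK2 values of FBP1 differed from each other more than the lower of them from WT, and the call was lost when the 2 groups were fitted alone (adjusted p = 0.0714). PCK1 lost its call without WT replicate 2 or 3 and without CK2 replicate 2, and FBP1 without WT replicate 2 or 3 and without CK2 replicate 3.

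The genes that lead from acetaldehyde to acetyl-CoA moved the other way. ALD3 (YMR169C), a cytosolic aldehyde dehydrogenase known to respond to stress, was at 31.5 and 55.1 RPKM in CK2 and at 168 and 165 RPKM in WT, and fell by 1.97 ± 0.41 on the log2 scale (limma, adjusted p = 0.00725). ALD2 (YMR170C), its tandem neighbour, was at 28.4 and 35.1 RPKM in CK2 and at 73.2 and 78.9 RPKM in WT (-1.24 ± 0.27). ALD6 (YPL061W), the main cytosolic form on glucose, was at 199 and 151 RPKM in CK2 and at 352 and 301 RPKM in WT (-0.91 ± 0.16). ACS1 (YAL054C), an acetyl-CoA synthetase, was at 10.6 and 11.5 RPKM in CK2 and at 20.5 and 21.8 RPKM in WT (-0.88 ± 0.14). None of the 4 overlapped between the groups. The mitochondrial ALD4 at 107 and 103 RPKM against 197 and 206 RPKM just missed the threshold (-0.93 ± 0.32, adjusted p = 0.0521). ALD5 was at 285 and 298 RPKM against 214 and 170 RPKM (0.61 ± 0.31, adjusted p = 0.168). It lies on chromosome V at 304030 to 305592, plus strand, where 274 of 289 tested genes had a log2 difference above 0 in CK2, with a median of 0.91, and the part of this in the ALD5 value was not tested.

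ALD2 and ALD3 cannot be read as fully separate measurements. They lie next to each other on chromosome XIII, at 601562 to 603082 and at 599352 to 600872 on the minus strand (R64). Their coding sequences are identical over the first 329 bases and share 40.4% of 50-base words, a stand-in for a read, whose length and assignment are not given in the sources used here. The first 120 coding bases are shown because a read from them fits both genes. They lie at chrXIII:602963-603082 in ALD2 and at chrXIII:600753-600872 in ALD3.
ALD2 and ALD3: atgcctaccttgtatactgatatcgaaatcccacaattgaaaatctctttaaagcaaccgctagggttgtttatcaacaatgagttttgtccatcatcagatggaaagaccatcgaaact

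Among the other members, ADH5 (chromosome II, 533762 to 534817, plus strand) had the largest rise. It was at 180 and 150 RPKM in CK2 and at 48.7 and 46.5 RPKM in WT, 3.47 times by the means (log2 difference 1.77 ± 0.19, limma, adjusted p = 0.000326). The CK2 replicates were the highest of the 12. HXK1 (YFR053C), the hexokinase known to be repressed on glucose, fell from 1375 and 1462 RPKM in WT to 756 and 728 RPKM in CK2 (-0.93 ± 0.18). PFK1 (YGR240C), the alpha subunit of phosphofructokinase, was at 242 and 210 RPKM in CK2 and at 339 and 344 RPKM in WT (-0.60 ± 0.14). GPD2 (YOL059W), a glycerol-3-phosphate dehydrogenase, was at 64.8 and 66.8 RPKM in CK2 and at 101 and 110 RPKM in WT (-0.67 ± 0.10). These groups did not overlap either, and HXK1, ADH5, ALD6, ACS1 and GPD2 kept their call in all 13 alternatives. PFK1 lost it without WT replicate 2 or 3 and without CK2 replicate 3.

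Lower glycolysis held the largest uncalled difference. TDH1 (YJL052W), a glyceraldehyde-3-phosphate dehydrogenase isozyme known from slow growth and stress, was at 8101 and 7945 RPKM in CK2 and at 3661 and 4324 RPKM in WT (1.01 ± 0.37, adjusted p = 0.069). GPM2 (YDL021W), a homologue of phosphoglycerate mutase, was at 175 and 169 RPKM against 88.4 and 101 RPKM (0.86 ± 0.30, adjusted p = 0.0549). Both pairs of groups were apart, and both genes passed when the 2 groups were fitted alone, where 19 members were called beside 43.7% of all genes.

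The CK2 replicates were close to each other for most members, yet they differed elsewhere. The summed RPKM of 8 genes of the mitochondrial genome was 3056 in CK2 replicate 2 and 6995 in replicate 3, against 7221 and 6084 in WT. In CK2 replicate 2, COX1, COB, ATP6 and OLI1 were at 0.711, 0.493, 0.274 and 0.926 RPKM, and ATP8 and VAR1 at 0. COX1, COB, ATP6 and OLI1 were at 940.9, 677.1, 318.5 and 2795 RPKM in replicate 3. Nearly all of the sum in replicate 2 was thus COX2 and COX3, at 772 and 2281 RPKM. The part of this difference in these results was not tested. Without CK2 replicate 2, 7 members were called and ALD2, ALD3 and PCK1 were lost. Of 12 general stress genes, 4 fell in CK2, none rose and 8 were not called. Over all genes 14.6% fell and 16.4% rose. The median log2 difference of the 12 was -0.76 beside 0.01 over all genes. HSP12, a membrane-associated stress protein with the largest fall of the 12, was at 916 and 1317 RPKM in CK2 and at 5130 and 5080 RPKM in WT (-2.22 ± 0.37, limma, adjusted p = 0.00253).

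H3T11A was compared with YBL574, although the labels do not say which group is its control. Of the 35 members, 11 rose and 3 fell, which is 40.0% called beside 40.7% of all genes. The groups did not overlap for 26 members, beside 65.5% of all genes. By direction, 31.4% of members rose beside 19.1% of all genes, and 8.57% fell beside 21.6%. The median log2 difference of the members was 0.40, beside -0.06 over all genes. Of the 17 glycolytic members 7 rose and 1 fell, with a median of 0.45. Those that rose were HXK2, GLK1, PGI1, PFK1, PFK2, TDH3 and ENO2. The 3 members that fell were the minor isozymes ADH5 and ALD5 and the phosphoglycerate mutase homologue GPM2.

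This pattern leaned on the shared estimate of the spread and on H3T11A replicate 3. When the 2 groups were fitted alone, ADH5 was the only member called, and 224 genes in all (3.33%). All 17 glycolytic members were higher in replicate 3 than in replicate 1 of H3T11A, with a median log2 difference of 0.62 beside 0.00 over all genes. The median of the 35 members against the YBL574 mean was 0.14 in replicate 1 and 0.70 in replicate 3. Without replicate 3, 11 members were called, 6 higher and 5 lower. Without replicate 1, 24 were called, 21 higher and 3 lower. Without YBL574 replicate 2 there were 7, and without YBL574 replicate 3 there were 6. PGI1, PFK2, TDH3 and GPM2 lost their call without either YBL574 replicate, ENO2 and ADH4 without YBL574 replicate 3 or H3T11A replicate 3, and GLK1, PDC5 and ALD4 without any of these 3 samples.

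**Figure D4:**
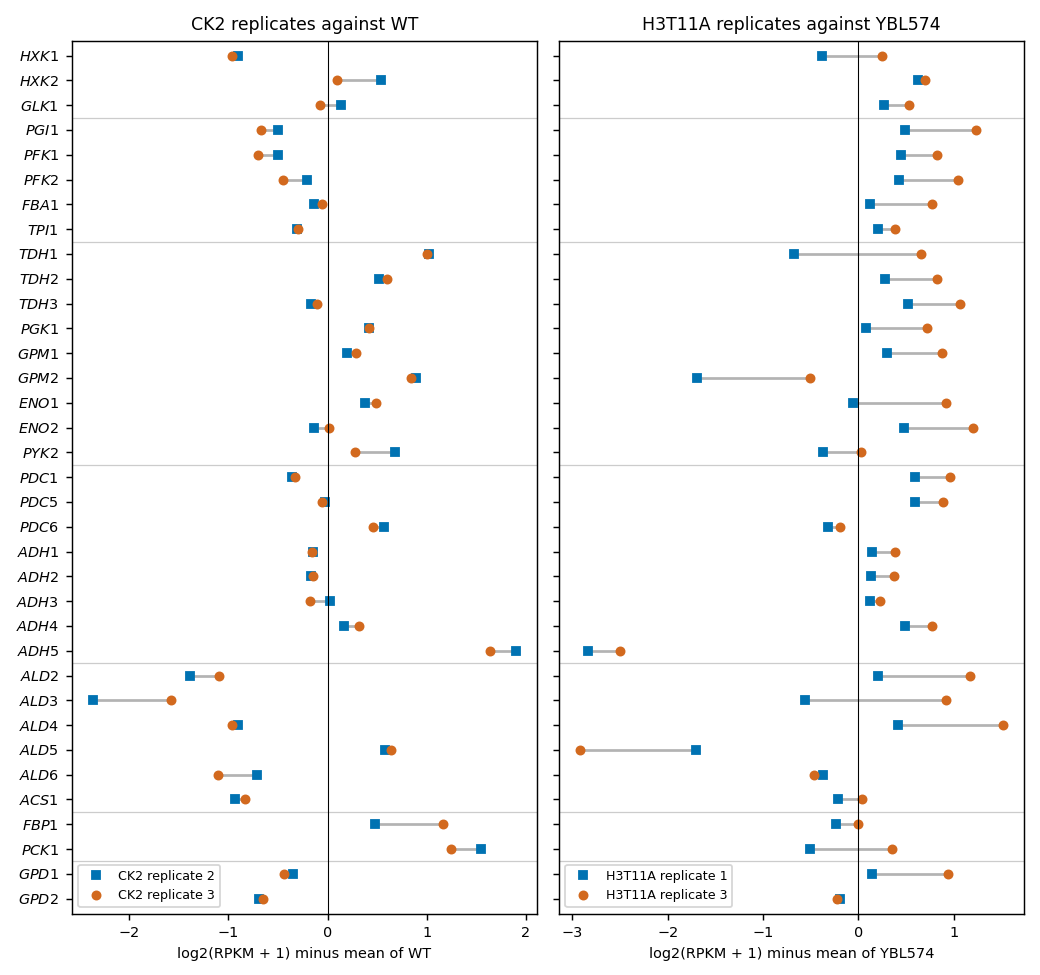
Each CK2 replicate against the WT mean (left) and each H3T11A replicate against the YBL574 mean (right), on the log2(RPKM + 1) scale, for the 35 genes, with a grey line joining the replicates of a gene. The CK2 replicates lie close together, whereas H3T11A replicate 3 lies right of replicate 1 for all 17 glycolytic genes.

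HXK2 (YGL253W), the main hexokinase on glucose, was the steadiest of the genes that rose. It was at 766 and 810 RPKM in H3T11A and at 498 and 497 RPKM in YBL574, a log2 difference of 0.66 ± 0.15 (limma, adjusted p = 0.00926). Both H3T11A replicates lay far above YBL574, and the call was lost only in the fit of the 2 groups alone. PDC1 (YLR044C), the main pyruvate decarboxylase, was at 7341 and 9439 RPKM in H3T11A and at 4884 and 4839 RPKM in YBL574 (0.78 ± 0.18, adjusted p = 0.00855). PFK1 was at 426 and 553 RPKM against 312 and 314 RPKM (0.63 ± 0.14, adjusted p = 0.00716). These 2 genes also lost their call in that fit only.

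The other genes of upper glycolysis gave a less even picture. PGI1 (YBR196C), phosphoglucose isomerase, was at 1361 and 2282 RPKM in H3T11A and at 961 and 977 RPKM in YBL574 (0.86 ± 0.21). PFK2 (YMR205C), the beta subunit of phosphofructokinase, was at 556 and 853 RPKM against 410 and 416 RPKM (0.74 ± 0.18). GLK1 (YCL040W), glucokinase, was at 717 and 856 RPKM against 578 and 608 RPKM (0.40 ± 0.13, adjusted p = 0.0404, or 0.0532 with the first technical libraries alone). The groups were apart for all 3, with replicate 3 the higher one. HXK1, by contrast, was at 464 and 718 RPKM in H3T11A and 620 and 588 RPKM in YBL574, so its groups overlapped.

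In lower glycolysis TDH3 was at 12086 and 17635 RPKM in H3T11A and at 8771 and 8149 RPKM in YBL574 (0.79 ± 0.22, adjusted p = 0.0198). ENO2 (YHR174W), the enolase that glucose induces, was at 5859 and 9618 RPKM against 4906 and 3584 RPKM (0.84 ± 0.26, adjusted p = 0.0325). The TDH3 and ENO2 groups did not overlap, although each H3T11A pair was widely spread. TDH1 was at 1476 and 3724 RPKM in H3T11A around 2773 and 2003 RPKM in YBL574. ENO1 (YGR254W), the other enolase, was at 2030 and 3989 RPKM around 2403 and 1845 RPKM. The minor isozymes TDH1 and ENO1 thus overlapped between the strains. GPM2 fell, from 35.7 and 34.8 RPKM in YBL574 to 10.2 and 24.4 RPKM in H3T11A (-1.10 ± 0.30, adjusted p = 0.0178).

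ADH5 and ALD5 had the largest changes of all members in H3T11A. ADH5 was at 13.3 and 17.0 RPKM in H3T11A and at 120 and 85.1 RPKM in YBL574, 6.77 times lower by the means (log2 difference -2.67 ± 0.19, limma, adjusted p = 4.71e-05). Its H3T11A values were the lowest of the 12 replicates, and it was called in all 12 alternatives. ALD5 was at 51.5 and 21.7 RPKM in H3T11A and at 174 and 167 RPKM in YBL574 (-2.31 ± 0.31, adjusted p = 0.000749). Here replicate 3 lay below replicate 1, the reverse of the glycolytic genes, and only the model of this pair without the other groups lost the call (adjusted p = 0.0617). ADH5 rose in CK2 relative to WT and fell in H3T11A relative to YBL574.

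The remaining calls concerned fermentation and acetate use. PDC5 was at 99.7 and 123 RPKM in H3T11A and at 64.5 and 67.0 RPKM in YBL574 (0.74 ± 0.24). ADH4 was at 67.1 and 82.0 RPKM against 50.5 and 45.1 RPKM (0.63 ± 0.16). ALD4 (YOR374W), the main mitochondrial aldehyde dehydrogenase, was at 108 and 232 RPKM against 68.9 and 93.5 RPKM (0.97 ± 0.32). The groups were apart for these 3, with ALD4 the most spread in H3T11A. PCK1 at 2.82 and 5.92 RPKM and FBP1 at 2.26 and 2.82 RPKM in H3T11A overlapped their YBL574 values of 4.69 and 4.19 RPKM and of 3.01 and 2.65 RPKM.

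Most other genes of the pathway were not called, but CDC19 was. CDC19, the main pyruvate kinase, was at 5579 and 8903 RPKM in H3T11A and at 4254 and 3686 RPKM in YBL574 (0.83 ± 0.23, adjusted p = 0.0209). Of 12 other glycolysis and fermentation genes, 3 rose (CDC19, SFA1 and ACS2), none fell and 9 were not called. Over all genes 19.1% rose and 21.6% fell. The median log2 difference of the 12 was 0.15, beside 0.40 for the members and -0.06 over all genes. ADR1, an activator of genes for non-fermentable carbon, was at 55.9 and 43.7 RPKM against 15.3 and 16.0 RPKM (1.60 ± 0.12, adjusted p = 6.81e-05). The general stress genes HSP42, HSP104, SSA4 and GRE3 rose, which is 4 of 12, with none lower and a median of 0.42. HSP104 was at 1082 and 1765 RPKM in H3T11A and at 368 and 377 RPKM in YBL574, again with replicate 3 above replicate 1, and the part of this in the member values was not tested.

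WT and control are both labelled wild type and are given the same medium. A comparison of the pair shows how far 2 groups with this label lay apart, not the scatter within a strain. Besides mating type, they differed at marker genes chosen after their values were seen. URA3 was at 39.1 and 37.4 RPKM in control and at 0.10 and 0.20 RPKM in WT. HIS3 was at 21.7 and 20.1 RPKM against 0 and 0.12 RPKM, and TRP1 at 8.97 and 8.96 RPKM against 62.0 and 54.7 RPKM. Differences of strain, culture and handling cannot be told apart in it. Of the 35 members, 6 rose and 14 fell in WT relative to control, which is 57.1% called beside 59.0% of all genes. By direction, 17.1% of members rose beside 36.9% of all genes, and 40.0% fell beside 22.1%. The median log2 difference was 0.17 over all genes and -0.33 over the members. Median-of-ratios scaling moved these medians to 0.03 and -0.49 and gave 1970 genes higher and 1880 lower, beside 2480 and 1486 as deposited, with 6 members higher and 16 lower. All 8 fermentation genes were called, 4 in each direction. The groups did not overlap for 30 of the 35 members, beside 84.4% of all genes.

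The alcohol dehydrogenases were the most divided family. ADH1 (YOL086C), the main ethanol-forming enzyme, was at 5078 and 5270 RPKM in WT and at 990 and 841 RPKM in control, 5.65 times higher by the means (log2 difference 2.50 ± 0.19, limma, adjusted p = 9.18e-06). ADH3 (YMR083W), the mitochondrial isozyme, was at 404 and 428 RPKM against 108 and 104 RPKM (1.96 ± 0.11). ADH4 (YGL256W), an isozyme known to be induced when zinc is scarce, was at 58.0 and 58.8 RPKM in WT and at 1139 and 986 RPKM in control, 18.2 times lower by the means (-4.16 ± 0.16, adjusted p = 2.74e-07). Control and serine stood on one side for each of these genes, and all 8 replicates of the other 4 groups stood on the other side. ADH4 was the highest ADH gene in control replicates 2 and 3, while ADH1 was the highest in every replicate of the other groups.

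**Figure D5:**
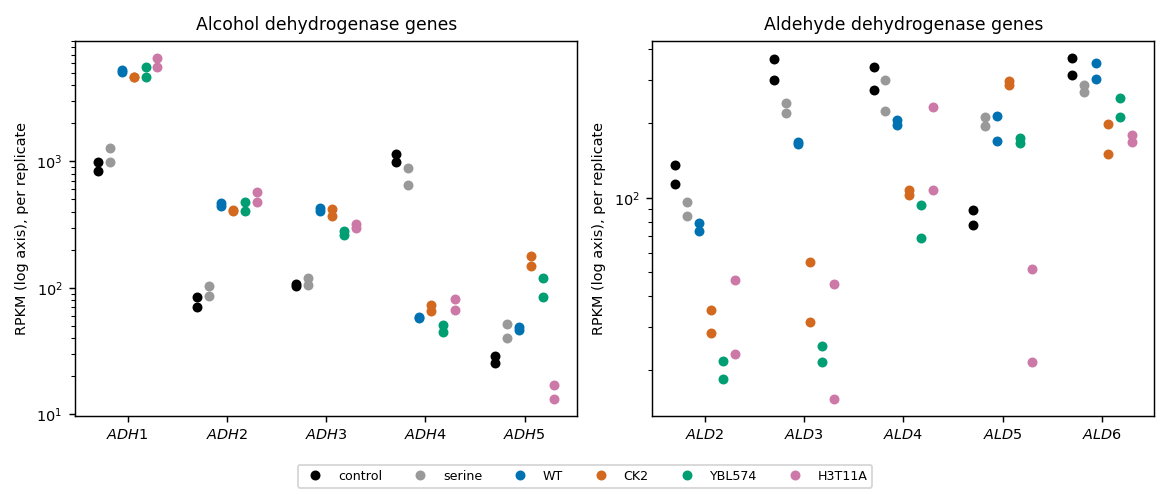
RPKM (log axis) of ADH1 to ADH5 (left) and ALD2 to ALD6 (right), with 1 point per biological replicate and a colour per group. ADH1 lies between 841 and 1269 RPKM in control and serine and at 4627 RPKM or more elsewhere, ADH4 shows the reverse, and ADH5 and ALD5 are lowest in H3T11A.

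Genes of zinc and inositol uptake or synthesis differed between the same libraries and were chosen after their values were seen. ZRT1, the high-affinity zinc transporter, was at 1635 and 1532 RPKM in control, at 1452 and 1437 RPKM in serine and at 23.9 to 55.4 RPKM in the other groups. ZAP1, the zinc-responsive activator, was at 180 and 176 RPKM in control and at 18.4 RPKM in both WT replicates. INO1, inositol-3-phosphate synthase, was at 7698 and 7583 RPKM in control and at 11.6 and 9.45 RPKM in WT. All 3 separated control and serine from the rest as ADH4 did, and their part in the ADH values was not tested. ADH4 lies at 15159 to 16307 on chromosome VII, plus strand, 4670 bases from ZRT1.

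ADH2 (YMR303C), the isozyme known to be repressed by glucose and to use ethanol, followed ADH1 closely. It was at 440 and 471 RPKM in WT and at 84.2 and 70.3 RPKM in control (2.55 ± 0.14, adjusted p = 1.98e-06). The ratio of ADH2 to ADH1 lay between 0.0813 and 0.0893 in all 12 replicates, although ADH1 itself varied 7.87 times. No other of the 16 isozyme ratios was as constant, the next being 1.84 times for PFK1 to PFK2. The ADH1 and ADH2 coding sequences are 88.8% identical and share 14.0% of 50-base words. How the counting assigned reads that fit both genes is not given in the sources used here, so the ADH2 values are uncertain. The first 120 coding bases of both genes are shown with the 15 differing bases in capitals, at chrXV:160475-160594 (ADH1, minus strand) and chrXIII:874218-874337 (ADH2, minus strand) of R64, since they are the kind of difference that assigns a read.
ADH1: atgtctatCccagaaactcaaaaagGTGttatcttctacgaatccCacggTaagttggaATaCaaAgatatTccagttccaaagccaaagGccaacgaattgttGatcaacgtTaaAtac
ADH2: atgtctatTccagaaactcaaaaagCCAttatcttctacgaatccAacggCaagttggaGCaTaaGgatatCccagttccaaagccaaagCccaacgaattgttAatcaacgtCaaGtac
The longest stretch without any difference is 189 bases, from coding base 193 of each gene, at chrXV:160214-160402 and chrXIII:873957-874145. It is shown because no read that falls within it can be assigned to 1 of the genes.
ADH1 and ADH2: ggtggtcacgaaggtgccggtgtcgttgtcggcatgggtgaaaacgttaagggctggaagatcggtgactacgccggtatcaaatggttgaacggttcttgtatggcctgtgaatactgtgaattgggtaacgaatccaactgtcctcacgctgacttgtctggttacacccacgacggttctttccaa

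The pyruvate decarboxylases fell in WT relative to control. PDC6 (YGR087C), a minor isozyme known to rise when sulfur is scarce, was at 6.94 and 11.1 RPKM in WT and at 131 and 170 RPKM in control, 16.6 times lower by the means (-3.93 ± 0.23, adjusted p = 2.2e-06). PDC5 was at 28.1 and 27.4 RPKM against 59.7 and 74.7 RPKM (-1.24 ± 0.24), and PDC1 at 3864 and 3644 RPKM against 5134 and 5243 RPKM (-0.47 ± 0.18, adjusted p = 0.0459). All 3 pairs of groups were apart. PDC1 lost its call in 8 of 13 alternatives, among them every one that left out a replicate.

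In glycolysis 8 of the 17 members (47.1%) fell and none rose, beside 22.1% of all genes lower and 36.9% higher. Of the 17, 15 had a log2 difference below 0 and 2 above 0. ENO1, at 2251 and 2553 RPKM in WT and at 8280 and 7432 RPKM in control, fell the most (-1.71 ± 0.29, adjusted p = 0.00101). TDH1 was at 3661 and 4324 RPKM against 9671 and 8984 RPKM (-1.23 ± 0.37), and TDH2 at 1953 and 1989 RPKM against 3179 and 2679 RPKM (-0.57 ± 0.21, adjusted p = 0.0428). GPM1 (YKL152C), the phosphoglycerate mutase, was at 3523 and 3676 RPKM against 6876 and 6014 RPKM (-0.84 ± 0.21). All 4 were separated by group, and TDH2 lost its call in 7 of 13 alternatives.

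Upper glycolysis moved the same way by smaller amounts. TPI1 (YDR050C), triose phosphate isomerase, was at 1321 and 1390 RPKM in WT and at 2362 and 2123 RPKM in control (-0.72 ± 0.14). PFK1 was at 339 and 344 RPKM against 571 and 527 RPKM (-0.68 ± 0.14), and PGI1 at 800.0 and 850.2 RPKM against 1372 and 1253 RPKM (-0.67 ± 0.21). HXK2 was at 403 and 400.4 RPKM against 671 and 577 RPKM (-0.63 ± 0.15). FBA1 at 7387 and 7326 RPKM lay within its control values of 8599 and 7171 RPKM, so not every glycolytic gene took part. HXK1 lay the other way without overlap, at 1375 and 1462 RPKM in WT against 1001 and 1051 RPKM in control. It was not called (0.47 ± 0.18, limma, adjusted p = 0.0529). PGI1 and TDH1 lost their call without any single replicate of either group, HXK2 without control replicate 2, and GPM1 without control replicate 2 or WT replicate 2.

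Acetate and glycerol genes were mixed. ACS1 was at 20.5 and 21.8 RPKM in WT and at 7.89 and 8.31 RPKM in control (1.28 ± 0.14, adjusted p = 7.68e-05). ALD5 was at 214 and 170 RPKM against 77.8 and 89.5 RPKM (1.18 ± 0.31), and ADH5 at 48.7 and 46.5 RPKM against 28.8 and 25.3 RPKM (0.79 ± 0.19). These 3 rose with ADH1, ADH2 and ADH3. ALD2 was at 73.2 and 78.9 RPKM against 114 and 135 RPKM (-0.70 ± 0.27, adjusted p = 0.0471), and GPD2 at 101 and 110 RPKM against 150 and 147 RPKM (-0.49 ± 0.10). ALD2 lost its call in 8 of 13 alternatives and GPD2 in none. ALD5 lost it without control replicate 2 or WT replicate 2.

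Ratios of isozymes within a library are free of the library's scaling, and are given as values with no test, since an exact permutation test of 2 against 2 replicates cannot go below p = 0.333. The ratio of ENO1 to ENO2 was 1.61 and 1.73 in control and 1.59 and 1.49 in serine, so ENO1 was the more abundant enolase there. It was 0.713 and 0.792 in WT, 1.07 and 1.04 in CK2, 0.490 and 0.515 in YBL574 and 0.347 and 0.415 in H3T11A. The order of the enolases thus changed between groups, with YBL574 and H3T11A on the side of ENO2.

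The glyceraldehyde-3-phosphate dehydrogenases changed order as well. The ratio of TDH1 to TDH3 was 1.10 and 1.12 in control, 1.10 and 1.20 in serine, 0.549 and 0.644 in WT and 1.36 and 1.28 in CK2. It was 0.316 and 0.246 in YBL574 and 0.122 and 0.211 in H3T11A. CK2 had the highest values and H3T11A the lowest. CK2 did not overlap WT, and H3T11A did not overlap YBL574. TDH2 to TDH3 varied less, from 0.250 in both H3T11A replicates to 0.483 in CK2 replicate 3.

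The hexokinases and the mitochondrial aldehyde dehydrogenases also shifted. HXK1 to HXK2 was 3.41 and 3.65 in WT, 1.29 and 1.70 in CK2, 1.25 and 1.18 in YBL574 and 0.606 and 0.886 in H3T11A. HXK2 was the more abundant hexokinase in H3T11A only. ALD5 to ALD4 ran from 0.0935 in H3T11A replicate 3 to 2.89 in CK2 replicate 3, and was 0.284 and 0.266 in control and 0.708 and 0.875 in serine. GPM2 to GPM1 ran from 0.0018 in H3T11A replicate 1 to 0.0425 in CK2 replicate 2. The extremes of both ratios were in H3T11A and CK2. The mean log2 ratio of GPM2 to GPM1 in H3T11A was -8.30 in the first technical libraries and -9.18 in the second.

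Isozyme pairs differed in how much of their sequence a read could share. Of 20 pairs of coding sequences, 13 shared no 50-base word, with a longest identical run of 10 to 29 bases. After ALD2 and ALD3, whose share of 40.4% was the highest of the 20, TDH2 and TDH3 shared 24.4% of words, ENO1 and ENO2 23.6%, TDH1 and TDH2 15.7%, TDH1 and TDH3 8.8%, and PDC1 and PDC5 1.0%. The values of the TDH and ENO genes are uncertain to that extent. The first 120 coding bases of TDH2 (chrX:454562-454681, minus strand) and TDH3 (chrVII:883691-883810, minus strand) are shown with their 11 differing bases in capitals, because TDH3 had the largest rise in RPKM of the members in H3T11A.
TDH2: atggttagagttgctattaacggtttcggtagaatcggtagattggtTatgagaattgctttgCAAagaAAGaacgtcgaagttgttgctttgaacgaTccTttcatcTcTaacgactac
TDH3: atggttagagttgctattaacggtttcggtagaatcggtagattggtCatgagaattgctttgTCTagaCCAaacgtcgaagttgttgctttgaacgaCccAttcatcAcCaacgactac

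Regulators and partner genes of carbon metabolism were read from fixed lists. Of 15 regulators, 1 rose and 3 fell in CK2, 2 rose and 1 fell in H3T11A, and 6 rose and 5 fell in WT relative to control. None was called with serine. Beside these and the counts below, 16.4% of all genes rose and 14.6% fell in CK2, and 19.1% and 21.6% in H3T11A. In WT relative to control the shares were 36.9% and 22.1%, and 1.34% of all genes were called with serine. GCR1, an activator of glycolytic genes, rose in CK2, at 97.9 and 106 RPKM against 57.5 and 71.8 RPKM in WT (0.66 ± 0.16, limma, adjusted p = 0.0139). The regulators that fell in CK2 were GCR2, HAP4 and MSN4. GCR2, known to act with GCR1, was at 44.4 and 40.9 RPKM against 49.8 and 51.5 RPKM (-0.24 ± 0.08, limma, adjusted p = 0.04). Of the 10 gluconeogenic partners, ICL1 (isocitrate lyase) and JEN1 (a lactate permease) rose in CK2, while MDH2, PYC2 and ACH1 fell. MDH2, the cytosolic malate dehydrogenase, was at 37.2 and 32.3 RPKM in CK2 against 145 and 132 RPKM in WT (-1.97 ± 0.17, adjusted p = 0.000122). It was at 147 and 117 RPKM in H3T11A against 23.4 and 26.9 RPKM in YBL574 (2.34 ± 0.17, adjusted p = 4.87e-05), so MDH2 and ADH5 went in opposite directions in both comparisons. Of the 6 glycerol genes, GUT1 (glycerol kinase) was the only gene of any list called with serine, at 70.8 ± 1.50 RPKM against 49.6 ± 4.01 RPKM in control (SD, n = 2, log2 difference 0.51 ± 0.09, limma, adjusted p = 0.0367).

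The 500 bases before the start codon were searched on both strands for known elements of carbon control, over 6002 nuclear protein-coding genes. The Gcr1 core CTTCC was in 66.1% of all and in 25 of the 35 members, and the Rap1 core ACACCC in 10.8% and in 5. The stress response element AGGGG was in 34.1% of all and in 20 members (57.1%). Matches to such short motifs are a description of letters, not of bound sites. The carbon source response element, through which Cat8 and Sip4 are known to act on gluconeogenic genes, was in 0.433% of all and in PCK1 only among the members. The window of PCK1 that holds it is shown with the element in capitals, at chrXI:630652-630711 on the plus strand of R64, since PCK1 had the largest rise of the gluconeogenic genes in CK2. The element begins 482 bases before the start codon.
PCK1: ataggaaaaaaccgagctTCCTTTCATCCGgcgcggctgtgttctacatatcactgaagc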

How the data were processed

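The authors deposited 1 table of RPKM values for 16 libraries (12 biological replicates in 6 groups), with no read counts and no coordinates. The submitters' processing notes name CASAVA 1.8.2, TopHat2 2.0.13, edgeR and sacCer3. The counter, its annotation, strand setting and the RPKM denominator are not given in the sources used here. Coordinates and sequences are from R64, the same assembly, and 6079 of 7125 identifiers (85.3%) matched its gene names. Read totals were fitted so that RPKM times length steps by whole reads (96.7% to 98.7% of low values within 0.1 of a whole number). They were used only to describe depth, and cover counting error only.

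The 2 libraries of 1 RNA extraction (YBL574, H3T11A) were averaged. Genes with at least 1 RPKM in at least 2 replicates were fitted as log2(RPKM + 1) with limma 3.58.1 in R 4.3.3 (all 6 groups, intensity trend), with Benjamini-Hochberg adjustment over 6727 genes. A pseudocount of 1 understates changes of low genes. P-values are two-sided. The code was tested on simulated data. Every member called in a comparison is given with its value in each replicate, and other genes come from lists of pathway, stress and mating-type genes unless stated to be chosen after their values were seen. The members and lists were chosen with earlier results of these data known. The alternatives were another pseudocount, no filter, 2 scalings, a fit of the 2 groups alone, the first or second technical library only, a replicate block and leaving out each replicate. The second-library alternative was chosen after seeing the data.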

Additional observations from a re-analysis of the deposited data

How the results depend on the processing

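Every called member kept its direction in all alternatives run, and other genes named were not run under them. Another pseudocount, no filter, both scalings and a single technical library gave 0, 10 and 14 members called for serine, CK2 and H3T11A and 17 to 22 for WT minus control, but with the first technical libraries GPM1 took the place of GLK1 in H3T11A. A fit of the 2 groups alone, which rests on 2 residual degrees of freedom, gave 1 member for serine, 19 for CK2 and 1 for H3T11A, where the genes called numbered 224 beside 2740. Replicate numbers did not pair the samples, as deviations of same-numbered samples correlated at -0.15 (serine and control), -0.01 (CK2 and WT) and 0.14 (WT and control). The number of CK2 replicate 2 is in doubt, as its title gives 2 and its description 1, and the pairing and every block fit rest on 2. With the replicate block in the fit of all groups, 618 genes and 3 members (ADH5, ALD5 and PDC5) were called for serine, 3352 genes and 19 members for CK2, and 22 members for H3T11A, whose replicate 1 was fitted exactly, since no other sample then had its number. With the replicate block in the fit of the 2 groups alone, 0 genes (limma, 1162 at an unadjusted p below 0.05) were called for serine and 17 members for CK2. No paired analysis of H3T11A with YBL574 alone was possible because they share fewer than 2 numbers.

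Leaving out 1 replicate at a time left a group with 1 sample, taken to vary like the others. It gave 15 to 23 genes and 0 to 1 members for serine, 1062 to 1266 genes and 7 to 10 members for CK2, 1660 to 3992 genes and 6 to 24 members for H3T11A, and 3132 to 3267 genes and 13 to 15 members for WT minus control. The log2 ratio of GLK1 to HXK2 in H3T11A was 0.034 in the second technical libraries, of the other sign than the mean of both. Each ratio was also taken in the first and in the second technical libraries. Of these values, 16 in YBL574 and 8 in H3T11A moved from that mean by more than the spread between replicates. With 2 replicates a group, differences near the SE of 0.10 to 0.41 of a member cannot be resolved. Differences of several times the SE can also miss the threshold, as that of TDH1 in CK2 did (1.01 ± 0.37). Values of FBP1 rest on 17 to 64 reads a library.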
